A study of Mus musculus with 4 samples.

Results

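Transcripts of 10 mouse genes were examined: 8 cathepsins, which are proteases of the endosome and lysosome, and 2 cystatins, which inhibit some of them. The genes were chosen by name, as Ctsa, Ctsb, Ctsc, Ctsd, Ctsl, Ctss, Ctsw, Ctsz, Cst3 and Cstb, from the 50600 genes in the deposited tables. All 10 passed the filter on low counts, which kept 12396 genes. All 10 were detected in each of the 4 libraries, at mean levels from 10.02 to 338 TPM. TPM (a length-scaled transcript abundance) is the count of sequenced fragments divided by gene length and scaled to the same total in every library.

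The RNA came from regulatory T cells, a CD4+ lineage defined by Foxp3 that holds immune responses in check. The cells are labelled as primary cells of strain C57BL/6NJ and form 1 group of 4 biological replicates, with no treated or control arm and no recorded age, sex or genotype change. The labels give 1 donor identifier for all 4 libraries and point to a CD4+ T cell differentiation protocol, so the cells may not be as they were in the animal. The words activated and 24h also occur in the output names recorded in the headers.

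Most cathepsins are made as inactive precursors, carried to lysosomes by mannose 6-phosphate receptors and activated there by acid and by proteolysis. In antigen-presenting cells they cut the invariant chain and antigens for MHC class II, and in killer lymphocytes Ctsc activates granzymes. Cathepsins B, C, L, S, W and Z are cysteine proteases of the papain family, cathepsin D is an aspartic protease and cathepsin A a serine carboxypeptidase. Cystatins block cysteine cathepsins by inserting loops into the active site cleft, and they do not block cathepsins A or D.

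The coding sequence around the catalytic cysteine is shown for the 6 cysteine cathepsins, because this is the residue that places them in 1 family and that cystatins cover. Each stretch is 27 bases of the coding strand, written 5′ to 3′ from GENCODE mouse release 21 transcripts on mm10, with the codon of the catalytic cysteine in capitals. They lie in coding exons. The Ctsb stretch, at chr14:63135705-63136415 on the plus strand, spans an intron, and its codon in capitals starts in exon 4. Those of Ctsc and Ctsl lie at chr7:88308015-88308041 plus (exon 6) and chr13:64367063-64367089 minus (exon 5). The others lie at chr3:95545336-95545362 plus for Ctss (exon 5), chr19:5466456-5466482 minus for Ctsw (exon 5) and chr2:174438184-174438210 minus for Ctsz (exon 2).
Ctsb: tcctgcggctctTGTtgggcatttggg
Ctsc: tcttgtggaagcTGCtactcatttgcc
Ctsl: cagtgcgggtctTGTtgggcgtttagc
Ctss: tcttgtggtgccTGCtgggctttcagt
Ctsw: agctgcaaatgcTGCtgggccatggca
Ctsz: tactgtggttccTGCtgggcccacggc
Ctsb and Ctsl were the most alike pair, with 20 of 27 bases equal (74.1%), followed by Ctss and Ctsz with 19 (70.4%). The least alike pairs shared 12 bases (44.4%) and were Ctsc with Ctsl, Ctsl with Ctsw and Ctss with Ctsw. Across their whole main transcripts none of these 6 genes shared a run of 50 bases with another gene, so their counts were not split between near-identical copies at that length.

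For the cystatins the stretch shown codes for the first inhibitory loop, the part that enters the active site cleft, with its 15 bases in capitals. It lies at chr2:148872913-148875161 on the minus strand for Cst3, where it starts in exon 1 and spans an intron, and at chr10:78426990-78427016 on the plus strand for Cstb (exon 2).
Cst3: cgtaagCAGCTCGTGGCTGGAgtgaac
Cstb: aagagaCAGATAGTGGCTGGCaccaac
The Cst3 and Cstb stretches had 16 of 27 bases equal (59.3%), although Cst3 codes for a secreted inhibitor and Cstb for one of the cytosol.

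The libraries held 38590127, 44357436, 48312918 and 93035969 assigned fragments in replicates 1 to 4. A count of 0 in them allows up to 3 fragments, or 0.0777, 0.0676, 0.0621 and 0.0322 CPM, the fragment count per fixed library total, and intervals and limits of this kind cover counting error only. Replicate 1 stood apart: protein-coding genes took 88.2% of its TPM against 95.6% to 96.6% in the others, and Gm42418, which overlaps ribosomal RNA sequence, took 2.04% of its fragments against 0.0704% to 0.175%. Xist, which is transcribed from the inactive X chromosome, stood at 100 and 88.7 TPM in replicates 1 and 2 and at 0.716 and 0.603 TPM in replicates 3 and 4, so the libraries differ in Xist although they share a donor identifier. The 6 T cell markers listed were all above 10 TPM, as were 5 of 6 regulatory T cell markers, with Ikzf2 at 4.32 TPM. Foxp3, the defining factor of regulatory T cells, stood at 101, 93.0, 125 and 115 TPM. Of 46 measured markers of other blood cell types, 8 reached 1 TPM, 2 reached 10 TPM (Cd8b1 and Nkg7), and 18 had 0 fragments in all 4 libraries. In bulk RNA, fewer cells of a type and less RNA per cell cannot be told apart.

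**Figure D1:**
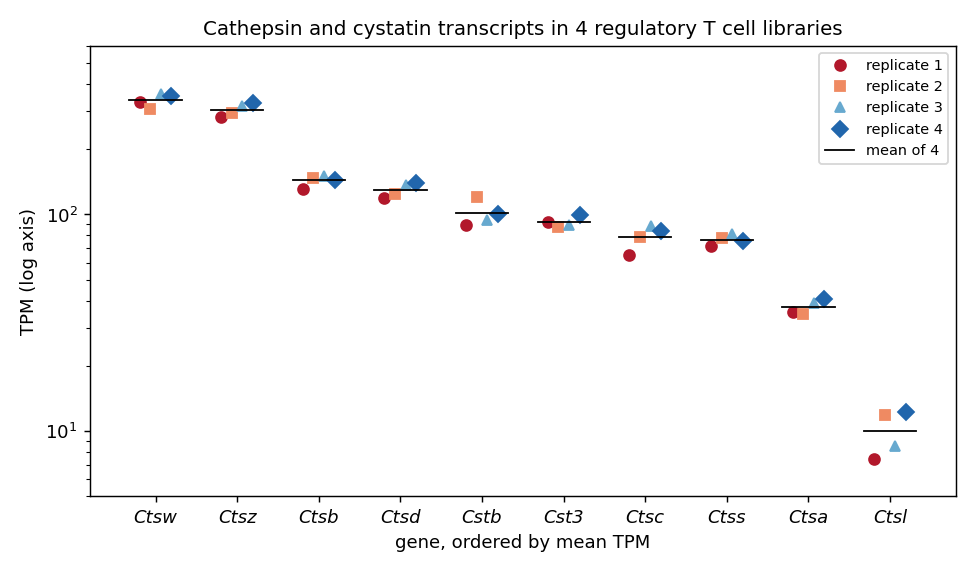
Level of each cathepsin and cystatin gene in TPM (log axis), with 1 point per library and a line at the mean of 4 libraries, ordered by mean. Ctsw and Ctsz lie highest, above 280 TPM in every library, and Ctsl lies lowest, between 7.43 and 12.2 TPM.

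Ctsw was the most abundant member. Cathepsin W is known chiefly from natural killer and CD8 T cells. Its gene (ENSMUSG00000024910.4, chr19:5465240-5468498, minus strand) stood at 331, 306, 362 and 353 TPM in replicates 1 to 4, a mean of 338 ± 24.9 (SD, n = 4). Replicate 2 was the lowest and replicate 3 the highest, 1.18 times apart. Ctsw ranked 488 among the 10383 protein-coding genes with a mean of at least 1 TPM, whose median level was 31.0 TPM, and it supplied 30.2% of the TPM of the 8 cathepsins. The markers of the cells it is known from were uneven. Natural killer markers summed to 97.7 to 106 TPM per library, nearly all of it Nkg7 (101 ± 3.64), and Ncr1, the receptor that defines these cells, had 0 fragments. Eomes stood at 0.454 and Klrd1 at 0.305 TPM on average. Cd8b1 stood at 15.8, 21.9, 25.3 and 24.1 TPM and Cd8a, the other CD8 chain, at 1.57, 1.43, 0.764 and 0.688 TPM. The part of such cells in the Ctsw level was not tested.

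Ctsz was next. It codes for cathepsin Z, also called cathepsin X, which removes single residues from the carboxyl end of proteins. The gene (ENSMUSG00000016256.10, chr2:174427493-174439039, minus strand) stood at 281, 294, 315 and 326 TPM, a mean of 304 ± 20.5 (n = 4). Replicate 1 was the lowest and replicate 4 the highest. Ctsw exceeded Ctsz in 4 of 4 libraries, by ratios of 1.18, 1.04, 1.15 and 1.08, but the ranges of the 2 genes overlapped. Ctsz supplied 27.2% of the TPM of the 8 cathepsins.

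Ctsb, which codes for cathepsin B, an endopeptidase that also trims dipeptides from carboxyl ends, followed at a clearly lower level. The gene (ENSMUSG00000021939.7, chr14:63122462-63145919, plus strand) stood at 131, 148, 150 and 145 TPM, a mean of 144 ± 8.42 (n = 4). Only replicate 1 stood below 140 TPM, and every Ctsz value was above every Ctsb value, with a 2.12-fold ratio of means. The dispersion of Ctsb was 0.110 times that expected from its abundance, the second smallest of the 10 genes. Scaled by TMM (trimmed mean of M values), a method that sets library size from the bulk of genes, its coefficient of variation was 1.89%, against 5.86% in TPM.

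Ctsc codes for cathepsin C, or dipeptidyl peptidase I, which removes dipeptides from amino ends and so activates granzymes. The gene (ENSMUSG00000030560.17, chr7:88278085-88310888, plus strand) stood at 65.1, 78.7, 88.8 and 83.9 TPM, a mean of 79.1 ± 10.2 (n = 4). Replicate 1 was lowest and replicate 3 highest, 1.36 times apart. Exact binomial 95% intervals on the counts ran from 63.2 to 67.0 TPM in replicate 1 and from 76.8 to 80.7 TPM in replicate 2, the next lowest, so these did not overlap. Its known substrates were scarce: Gzmb stood at 1.05, 1.27, 1.71 and 1.33 TPM, Gzmc had 0 fragments, and Gzma had 7 fragments, all in replicate 4.

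Ctss codes for cathepsin S, which cuts the invariant chain in antigen-presenting cells and works at neutral as well as acid pH. The gene (ENSMUSG00000038642.10, chr3:95526786-95556403, plus strand) stood at 71.2, 78.1, 81.5 and 75.3 TPM, a mean of 76.5 ± 4.38 (n = 4). Its dispersion was 0.0829 times that expected from its abundance, the smallest of the 10 genes. The Ctsc to Ctss ratio was 0.914, 1.01, 1.09 and 1.11 with the deposited lengths, so Ctss was higher in replicate 1 and Ctsc in the other 3. With the longest coding transcript it was 1.64, 1.82, 1.96 and 2.01, with Ctsc higher in all 4. Cd74, the gene of the invariant chain, stood at 125, 136, 122 and 146 TPM (132 ± 10.99), above Ctss in every library.

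Ctsl codes for cathepsin L, an endopeptidase that acts on the invariant chain in thymic epithelium. It was the least abundant member (ENSMUSG00000021477.8, chr13:64363214-64370306, minus strand), at 7.43, 11.8, 8.57 and 12.2 TPM, a mean of 10.02 ± 2.39 (n = 4). Replicates 2 and 4 were high and replicates 1 and 3 low, with a highest-to-lowest ratio of 1.65, the widest among the 10 genes. The values rested on 177, 310, 237 and 665 fragments, with exact binomial 95% intervals of 6.37 to 8.61, 10.6 to 13.2, 7.51 to 9.73 and 11.3 to 13.2 TPM. The intervals of the low pair overlapped each other, as did those of the high pair, and neither of the low pair overlapped either of the high pair. Ctsl ranked 7866 of 10383 protein-coding genes, below their median, while the other 9 members ranked above it.

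Ctsd codes for cathepsin D, the main aspartic protease of lysosomes. The gene (ENSMUSG00000007891.16, chr7:142375911-142388038, minus strand) stood at 119, 124, 136 and 139 TPM, a mean of 130 ± 9.46 (n = 4), with replicate 1 lowest and replicate 4 highest. Ctsb was above Ctsd in 4 of 4 libraries, by 1.10, 1.19, 1.10 and 1.04 times, with overlapping ranges. This order depended on how the Ctsd length was taken. Of its 2351 exon bases, 808 (34.4%) are also exon bases of Gm49369 (ENSMUSG00000110040.1, chr7:142371096-142382667), a gene model on the same strand that had 0 fragments in all 4 libraries. Fragments that overlap both genes were not requested in the counting. Over the 1543 bases that Ctsd does not share, its level was 182, 189, 208 and 212 TPM (198 ± 14.4), above Ctsb in every library, so the level of Ctsd is uncertain between these values.

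Ctsa codes for cathepsin A, a carboxypeptidase that also shields the glycosidases Neu1 and Glb1 from degradation in lysosomes. The gene (ENSMUSG00000017760.15, chr2:164832873-164841032, plus strand) stood at 35.6, 34.6, 39.2 and 40.9 TPM, a mean of 37.6 ± 2.97 (n = 4). In TPM replicates 1 and 2 were below replicates 3 and 4, while under TMM replicate 2 alone stood below the rest. Every Ctss value was above every Ctsa value, with a 2.04-fold ratio of means, and every Ctsa value above every Ctsl value, with a 3.75-fold ratio. Its 2 partners were more abundant, chosen for mention after their values were seen: Neu1 averaged 51.7 TPM and Glb1 53.6 TPM. On the opposite strand, exons of Neurl2 and Pltp cover 819 bases of Ctsa exons, and those of Fdft1 cover 767 bases of Ctsb, but the counting used strand.

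Cst3 codes for cystatin C, a secreted inhibitor of cysteine cathepsins. The gene (ENSMUSG00000027447.6, chr2:148871722-148875692, minus strand) stood at 91.9, 87.5, 89.4 and 99.1 TPM, a mean of 92.0 ± 5.09 (n = 4). Replicate 4 was the highest, and the other 3 lay within 5 TPM of each other.

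Cstb codes for cystatin B, or stefin B, an inhibitor found in the cytosol and nucleus. The gene (ENSMUSG00000005054.7, chr10:78425669-78427622, plus strand) stood at 89.4, 121, 94.7 and 101 TPM, a mean of 101 ± 13.7 (n = 4). Replicate 2 stood above the rest, with an exact binomial 95% interval of 113 to 128 TPM against 95.9 to 106 in replicate 4, the next highest. The Cstb to Cst3 ratio was 0.973, 1.38, 1.06 and 1.02, or 1.02 ± 0.0431 on average without replicate 2. With the longest coding transcript as length the order turned: the ratio was 0.661, 0.937, 0.719 and 0.690, with Cst3 above Cstb in 4 of 4 libraries, so which cystatin was higher depended on the length used.

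Inhibitor and protease transcripts were summed within each library. The 8 cathepsins summed to 1041, 1075, 1181 and 1175 TPM (1118 ± 70.6, n = 4) and the 2 cystatins to 181, 208, 184 and 200 TPM (193 ± 12.8). The cystatin sum over the cathepsin sum was 0.174, 0.194, 0.156 and 0.170 (0.173 ± 0.0156), highest in replicate 2, where Cstb was highest. Against only the 6 cysteine cathepsins, without Ctsa and Ctsd, the ratio was 0.205, 0.227, 0.183 and 0.201 (0.204 ± 0.0182). Whether cystatins block each of the 6 was not tested. These ratios leave out other inhibitors, which summed to 81.8 to 102 TPM per library, mostly Ctla2a, Cst7 and Ctla2b.

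By mean level the order was Ctsw, Ctsz, Ctsb, Ctsd, Cstb, Cst3, Ctsc, Ctss, Ctsa and Ctsl. Of the 9 neighbouring pairs in this order, 3 had ranges that did not overlap across the 4 libraries: Ctsz over Ctsb, Ctss over Ctsa and Ctsa over Ctsl. The ranges of the other 6 overlapped in TPM, while under TMM scaling 6 of the 9 pairs were apart, adding Ctsb over Ctsd, Ctsd over Cstb and Cst3 over Ctsc. Within libraries the order held in 4 of 4 for every pair except Cstb over Cst3 and Ctsc over Ctss, which held in 3 of 4. Gene length carried part of the order. With the longest coding transcript in place of the deposited exon length, Ctsc stood at 104 TPM, level with Ctsb and Ctsd at 104 TPM each. Ctsl then stood at 2.33 TPM, because its longest annotated transcript has 6168 bases against 1971 in the deposited length. That transcript is from GENCODE release 21, while fragments were counted over release 13 exons. Fragments over its further bases were not counted for Ctsl, so 2.33 TPM mixes the releases and is not a like-for-like level. Ctsw and Ctsz stayed highest, at 244 and 221 TPM.

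**Figure D2:**
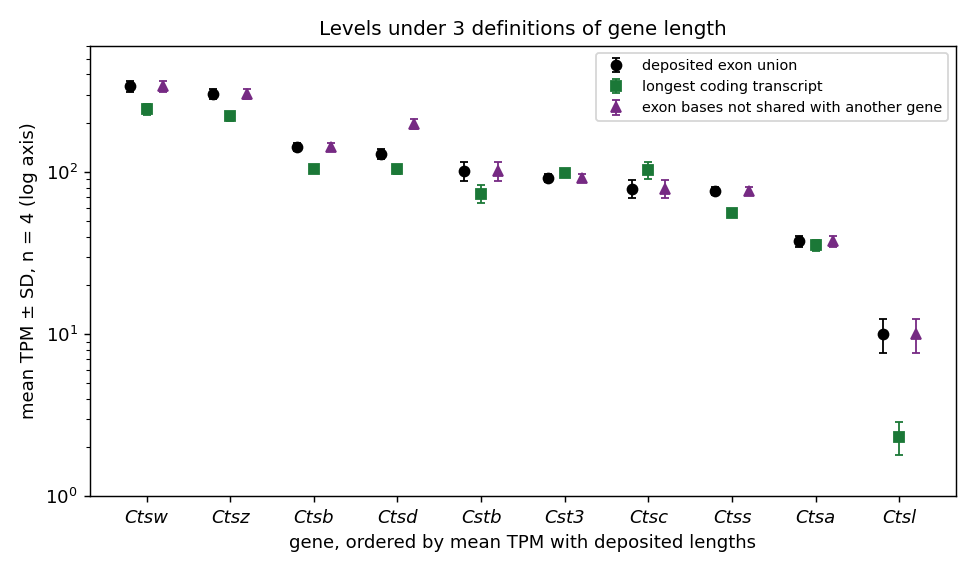
Mean level of each gene in TPM (log axis) with error bars of 1 SD over 4 libraries, under the deposited exon length, the longest coding transcript and the exon bases not shared with another gene on the same strand. Ctsd moves from 130 to 198 TPM with unshared bases, and Ctsl from 10.02 to 2.33 TPM with the longest transcript. That Ctsl transcript is from a later annotation release than the counted exons and is longer than they are.

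Spread between the libraries was tested with the quasi-likelihood dispersion of edgeR, which asks whether a gene varies more than genes of like abundance. None of the 10 members was called at an adjusted p of 0.05 or less, where 58 of 12396 genes (0.468%) were. At an unadjusted p under 0.05, 1 of 10 members was counted (Ctsc), where 661 genes (5.33%) were. A chi-square comparison, made here, of DESeq2's gene dispersion with its fitted trend called 0 members, where it called 85 genes (0.686%). At an unadjusted p under 0.05 it counted none of the members, where it counted 738 genes (5.95%). With 10 members these counts do not set them apart from the background, and missing the threshold does not show that a gene did not vary. Ctsc had the largest dispersion, 3.00 times that expected from its abundance, with an adjusted p of 0.931 by edgeR. Ctsl followed at 2.42 times, with an adjusted p of 0.974 by edgeR. Next were Ctsw at 1.96 and Cstb at 1.66 times. The median was 1.11 over the 10 members and 0.809 over all genes tested. Such p-values describe the scatter among these 4 libraries and no more, since separate animals or cultures are not stated in the labels.

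Replicate 1 was the lowest library for 7 of the 10 members in TPM, and for 52.0% of all tested genes. Under TMM scaling it was the lowest for 3 members and for 28.4% of tested genes, so the low values of replicate 1 moved with the scale. Replicate 4 was the highest library for 5 members on both scales, against 20.9% of tested genes in TPM and 19.8% under TMM. The coefficient of variation of Ctsl was 23.8% in TPM and 22.3% under TMM, and that of Cstb 13.5% and 12.2%. That of Ctsc moved more, from 12.9% to 9.22%. In TPM, replicates 1 and 2 both lay below replicates 3 and 4 for Ctsw, Ctsz, Ctsd, Ctsc and Ctsa. Under TMM this held for Ctsz, Ctsd and Ctsc. The share of all tested genes with this split was not computed, so these counts do not set the members apart. In TPM, replicate 1 was the lowest library for 52.0% of tested genes and replicate 2 for 23.4%. Xist divided the libraries into the same pairs. By rank alone, replicates 1 and 2 also had fewer assigned fragments and a larger share of Gm42418 than replicates 3 and 4. In fragments replicate 4 stood apart from the rest, and in Gm42418 replicate 1 did. The part of any of these in the levels was not tested. The coefficient of variation in TPM had a median of 8.10% over protein-coding genes of at least 1 TPM, which 3 members exceeded.

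**Figure D3:**
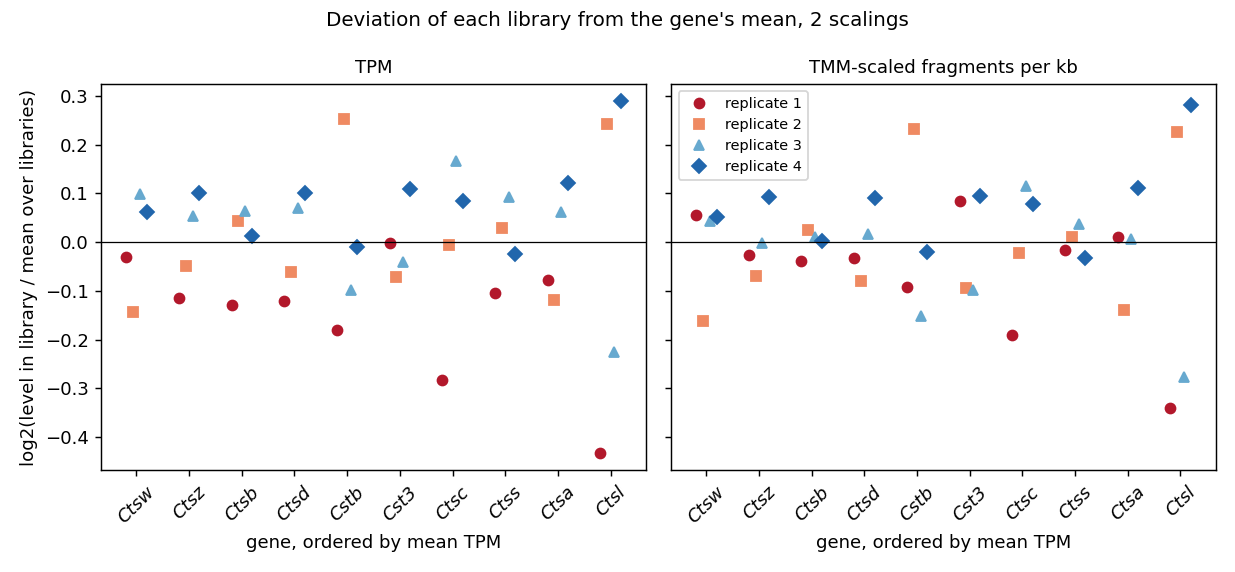
Departure of each library from the gene's mean, as log2(level in the library / mean over 4 libraries), in TPM on the left and in TMM-scaled fragments per kilobase on the right, with 1 symbol per replicate. Replicate 1 lies lowest for 7 genes on the left and for 3 on the right, while Ctsl in every library and Cstb in replicate 2 keep their place.

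The other 15 cathepsin genes listed were at or near 0. Only Ctse, an aspartic protease of endosomes, and Ctso, a cysteine cathepsin, reached 1 TPM, at 1.71 ± 0.254 and 1.48 ± 0.118 TPM (n = 4). Ctsk, the collagenase of osteoclasts, was at 0, 0, 0.518 and 0.120 TPM, and Ctsh, an aminopeptidase, had 3 fragments over all 4 libraries. The number with 0 fragments was 9, among them genes known from the placenta.

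Among 16 other measured cystatins and cysteine cathepsin inhibitors, 3 reached 10 TPM and 11 had 0 fragments. Ctla2a, which resembles a cathepsin propeptide and inhibits cathepsin L-like proteases, stood at 40.8, 49.6, 54.9 and 49.8 TPM (48.8 ± 5.86). Ctla2b, its close relative, stood at 18.0 ± 2.75 TPM. These 2 values are uncertain, since 30.1% and 86.1% of the 50-base runs of their main transcripts occur in other genes. Cst7, cystatin F, an inhibitor of Ctsc carried to lysosomes in immune cells, stood at 26.8, 23.7, 27.5 and 24.7 TPM (25.7 ± 1.78) and shared no such run. It was below Ctsc in every library. Cst6, the lowest with any fragment, averaged 0.0604 TPM, and Csta2 and Csta3 matched no gene name. No gene of these lists that could be tested varied at an adjusted p of 0.05 by edgeR (2 cathepsins and 3 inhibitors tested), and none did at an unadjusted p under 0.05.

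Of 22 listed genes of lysosomal delivery and processing, 19 reached 1 TPM and 17 reached 10 TPM. Their median was 30.9 TPM, close to the 31.0 TPM of all protein-coding genes with a mean of at least 1 TPM. Furin, a protease of the Golgi that cuts precursors, stood at 475, 402, 460 and 451 TPM (447 ± 31.6). Psap, whose product is the precursor of the saposins and binds procathepsin D, stood at 274, 280, 299 and 306 TPM (290 ± 15.4). M6pr, the cation-dependent mannose 6-phosphate receptor that sorts enzymes to lysosomes, stood at 191, 231, 225 and 224 TPM (218 ± 18.3), lowest in replicate 1. Cd63, a lysosomal membrane protein, was the lowest at 0.0926 TPM. Chosen after their values were seen, Lgmn, the legumain that processes cathepsins to their double-chain forms, averaged 13.6 TPM, and Igf2r, the larger mannose 6-phosphate receptor, 70.3 TPM. By edgeR, 0 of the 21 tested varied at the adjusted threshold and 3 did at an unadjusted p under 0.05 (Furin, Nagpa and Igf2r), beside 5.33% of all genes tested.

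The other lysosomal enzymes and transporters were at like levels: 20 of 21 reached 1 TPM and 19 reached 10 TPM, with a median of 35.9 TPM. Ifi30, a thiol reductase that unfolds antigens, stood at 260, 276, 310 and 305 TPM (288 ± 23.7), close to Ctsz. Npc2, which carries cholesterol out of lysosomes, stood at 105 ± 7.77 TPM and Gusb, a glycosidase, at 91.2 ± 4.98 TPM. Napsa, an aspartic protease related to Ctsd, was at 0, 0.198, 0.295 and 0 TPM. By edgeR, 0 of the 20 tested varied, adjusted or unadjusted. Of 8 substrates and partners, 5 reached 1 TPM. After Cd74 the highest were Tlr7, an endosomal receptor that cathepsins cleave, at 6.16 ± 0.997 TPM, and Serpinb9, an inhibitor of granzyme B, at 2.65 ± 0.325 TPM. By edgeR, 0 of the 5 tested varied, adjusted or unadjusted.

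Macrophages, dendritic cells and B cells express many cathepsins at high levels, so their markers were read beside these values. Of 15 macrophage and monocyte markers 2 reached 1 TPM (Cd68 and Adgre1), the list summed to 6.20 to 9.72 TPM per library, and Lyz2, C1qa, C1qb and C1qc had 0 fragments. Of 8 dendritic cell markers 1 reached 1 TPM (Batf3, which T cells also express), the list summed to 6.32 to 8.44 TPM, and Clec9a, Cd209a and Siglech had 0 fragments. Of 6 B cell markers 2 reached 1 TPM (Cd79a and Cd79b), with sums of 2.96 to 4.70 TPM. All 6 neutrophil and all 4 mast cell and basophil markers had 0 fragments. The 10 members summed to 1223, 1283, 1365 and 1375 TPM in the same libraries. The part of such cells in the members' levels was not tested.

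**Figure D4:**
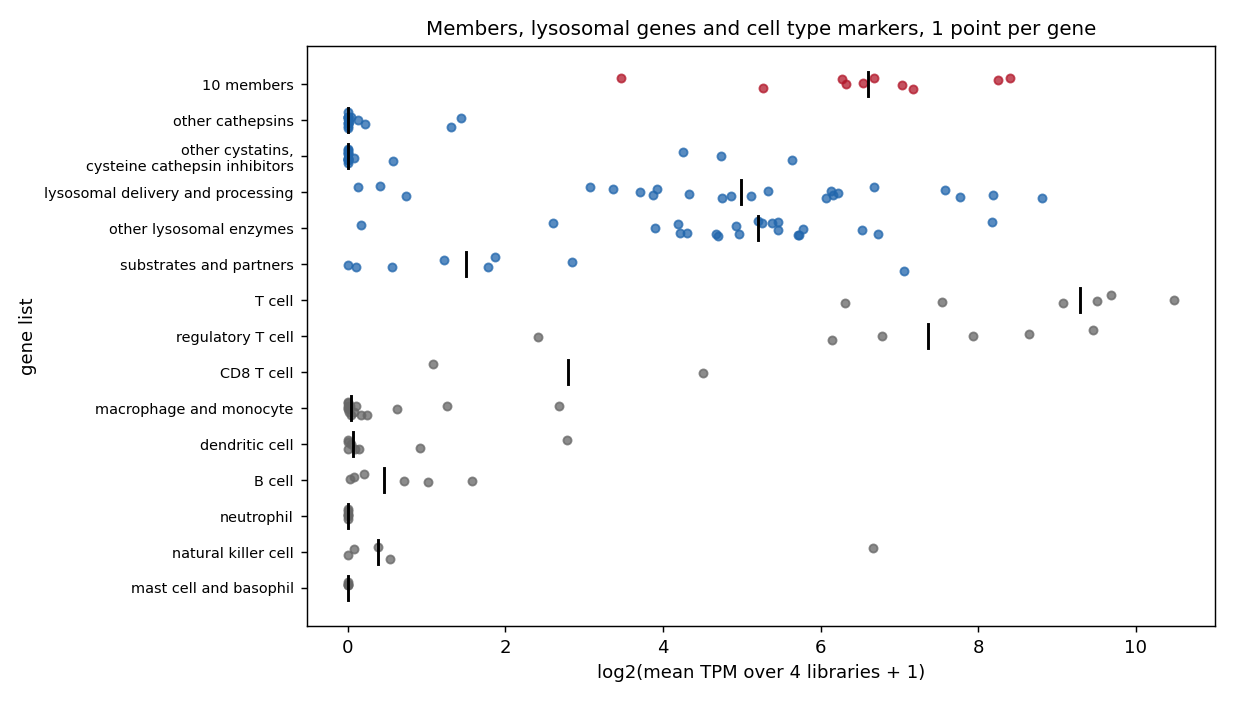
Mean level over 4 libraries as log2(TPM + 1), with 1 point per gene and a black line at each list's median, for the 10 cathepsin and cystatin genes, related lysosomal lists and cell type markers. The other cathepsins and inhibitors lie mostly at 0, the delivery and enzyme lists have medians of 30.9 and 35.9 TPM, and the neutrophil and mast cell lists lie at 0.

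Promoter sequence was examined because the factors TFEB and TFE3 are known to drive lysosomal genes through a box with the core CACGTG. Both factors and their relative Mitf were expressed unevenly: Tfe3 averaged 28.1 TPM, Tfeb 7.43 TPM and Mitf 0.667 TPM, chosen for mention after their values were seen. The core reads the same on both strands and was sought in RefSeq windows of 300 bases (250 before and 50 after a start site, GRCm38.p6). It was in 2349 of 32851 windows (7.15%) and in 3 of the 8 windows of the 7 members that had one: the second of 2 windows of Ctsa, and those of Ctsd and Ctsl. The matches are shown with up to 10 bases on each side and the core in capitals. The distance is that of the first core base from the RefSeq start site of the window. The Ctsa pair lies at chr2:164833751-164833776 (-12) and chr2:164833768-164833793 (6), plus strand, and the Ctsd pair at chr7:142388057-142388077 (-245) and chr7:142387910-142387935 (-98), minus strand. The Ctsl match lies at chr13:64370741-64370766 (-236), minus strand. The RefSeq start sites can differ from the gene ends used for counting. The whole Ctsl window (chr13:64370471-64370770) lies upstream of the counted gene, which ends at 64370306. The Ctsa window with the matches (chr2:164833523-164833822) lies inside the counted gene, which starts at 164832873. The counted Ctsd gene ends at 142388038, so its match at -98 lies inside the counted gene and its match at -245 upstream of it.
Ctsa: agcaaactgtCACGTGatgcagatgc
Ctsa: tgcagatgctCACGTGaccagagcta
Ctsd: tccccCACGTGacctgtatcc
Ctsd: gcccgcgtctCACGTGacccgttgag
Ctsl: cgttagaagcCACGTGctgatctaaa
The windows of Cst3, Ctsc, Ctss and Ctsz did not hold these letters, and Ctsb, Ctsw and Cstb had no window. A match describes the sequence and is not a measured binding site. The 3 genes with a match stood at 37.6, 130 and 10.02 TPM, and whether a match goes with the level was not tested.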

How the data were processed

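Per the file headers, the authors counted fragments per gene with featureCounts 1.4.6-p4, and the deposited values are raw counts. A pair counted when both ends mapped, exons were summed by gene from GENCODE mouse release 13 on mm10, and the strand setting was 2. Fragments overlapping several genes or places were not requested. For the aligner, nothing is stated: not given in the sources used here. The labels name total RNA-seq but link a polyA+ protocol. Exon length in bp per gene stands beside the deposited counts.

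Counts were used as deposited. TPM was computed from counts and exon lengths. Names came from GENCODE mouse release 21, which matched 50376 of 50600 gene IDs. The test of spread used R 4.3.3 and edgeR 4.0.16. After filterByExpr and TMM scaling, a robust quasi-likelihood fit with an intercept alone gave each gene's dispersion and its prior, whose ratio was tested in the upper tail of F. P-values were adjusted over 12396 genes by Benjamini-Hochberg, at 0.05. As an alternative, DESeq2 1.42.0 gave each gene's dispersion and its fitted trend, whose ratio was compared here with a chi-square distribution. DESeq2 itself does not provide that test. On simulated counts for this test of 12396 genes with 1 library changed, it called 8 of 50 genes at 1.5-fold, 33 at 2-fold, 42 at 3-fold, 37 at 4-fold and 1 of 12196 unchanged genes. Levels, order and ratios are descriptions without a test.

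Genes named are the 10 members and, from each list, the 3 with the highest mean TPM, the lowest with a fragment and any called by the test; others are said to be chosen after their values were seen, apart from cell markers and the known substrates of Ctsc. The members and lists were chosen with earlier results of these data known. Alternatives changed the scaling, filter, length, tool and libraries.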

Additional observations from a re-analysis of the deposited data

Results flagged for a closer look

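Of 37 sets of 4 values checked, 3 had a library far from the others, where chance gives about 1 in 20. Gusb stood at 83.8 TPM in replicate 1, below the 92.9 to 94.1 TPM of the others. M6pr stood at 191 TPM in replicate 1, below 224 to 231 TPM. The edgeR test of spread, which uses TMM scaling, did not set either gene apart. Its unadjusted p was 0.928 for Gusb and 0.489 for M6pr. Gzma stood at 0.289 TPM in replicate 4, from 7 fragments, and at 0 in the others; a gene at 0 in 3 of 4 libraries is always listed here, so it does not count toward that chance rate. No cathepsin or cystatin of the 10 was among them. Replicate 1 was also the lowest library for 52.0% of tested genes in TPM and for 28.4% under TMM scaling.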

How the results depend on the processing

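The summed level of the 10 genes was 1312 TPM. In other units it was 393 FPKM, which keeps the library total in place of the common scale, and 393 with TMM-scaled library sizes, which are not TPM, and it was 1391 TPM over protein-coding genes and 1043 TPM with the longest coding transcript. The number of neighbouring pairs without overlap was 3, and 5 in FPKM, 5 in TPM over protein-coding genes, 6 under TMM, 5 with the longest transcript, 5 with unshared exon length (chosen after seeing the data), and 3 to 6 with 1 replicate left out, of which replicate 2 gave 6 and replicate 1 gave 5. The 3 pairs apart in TPM were apart under each of these, with Ctsd between Ctsz and Ctsb under unshared length. The cystatin to cathepsin ratio was 0.198 with the longest transcript. Genes called variable numbered 58, and 110 without the low count filter, where 21459 genes were tested, and 37 to 69 with 1 replicate left out (37 without replicate 1). Members called were 0 under all 8 alternatives, with a lowest adjusted p of 0.466 (Ctsc without replicate 2, edgeR). No paired analysis was possible because the labels give 1 group. Depth limits Ctsl, which rested on as few as 177 fragments.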
